A study of Arabidopsis thaliana with 20 samples.

Results

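A set of 40 Arabidopsis thaliana genes stood higher in the order of array signals in atpc1-1 than in wild type (WT). They are 40 of 257 candidate rows, on an array where 692 rows list a single gene, 870 list several and 1877 list none. The choice rested on the same comparison of genotypes that is described below, so their rise is a description and was not tested. A percentile is the place of a row among all rows of 1 array column, on a scale that ends at 100 for the brightest row. A candidate had to list a single gene, to be above 0 in all 20 columns and not to lie in the brightest 20% in all of them. The 40 genes had the largest rise of the median percentile, atpc1-1 minus WT. Before the choice, 10 genes were left out by name, and 8 of these were candidates. With them kept in, 6 would have stood among the first 40: FATB, PIFI, CYN, PRK, and the loci AT4G01310 and AT3G54210 that carry the names RPL5 and RPL17 in the rule. Their rises lay between 19.0 (AT3G54210) and 43.1 points (FATB).

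Total RNA was measured in 10 samples labelled atpc1-1 and 10 labelled WT. Both genotypes were of ecotype Columbia 0 and grew on MS medium, a salt mixture for plants in culture; per the labels the mutant lacks the γ subunit of the ATP synthase. The mutant is represented by 1 allele. The labels give neither tissue nor age, nor whether samples came from separate plants. Columns were paired by adjoining number, 1 with 2, 3 with 4 and so on. Each of the 20 columns correlated best with its partner among columns of its genotype, on deviations from the genotype mean. This correlation was 0.388 to 0.869 in WT pairs. In atpc1-1 pairs it ranged from 0.00859 to 0.49, and columns 1 and 2, 5 and 6, and 7 and 8 had at most 0.0618. The labels do not state the pairing. Each such pair was averaged and counted as 1 replicate, 5 a genotype, called 1 to 5. The spread between these replicates may therefore be technical.

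The chloroplast ATP synthase sits in the thylakoid membrane and makes ATP from the proton gradient that photosynthetic electron transport builds up. Its γ subunit is the shaft that turns inside the catalytic head and passes the energy of proton flow to it. It is encoded in the nucleus, as are most proteins of the chloroplast, so that a plant without it can be asked which nuclear transcripts stand at another level.

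Levels over the whole array bear on every value below. The deposited intensity at the median row was 0.130 to 0.224 in atpc1-1 columns, against 0.339 to 0.493 in WT columns, and 5.70% to 20.8% of rows stood at 0 in atpc1-1 columns, against 3.63% to 4.36% in WT. The median atpc1-1 column was dimmer than the median WT column at every whole percentile from 4 up to, but not including, 96; at percentiles up to 3 both stood at 0. A gene can thus rise in percentile while its deposited intensity is lower. Lower transcript levels per cell and fewer cells of a type cannot be told apart in such samples. The 1 row that lists ATPC1 lists ATPC2 too and stood at a median percentile of 70.0 in atpc1-1 and 66.8 in WT, so it does not check the genotypes. Of 9 green tissue markers, 3 had a row of their own (PSAN, PSBW and LHB1B2), and these stood between percentiles 91.9 and 99.9 in atpc1-1 and between 92.1 and 99.9 in WT. None of 12 markers of root, flower and seed had one.

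The 40 genes rose by 16.4 to 48.1 percentile points, with a median of 25.4, beside a median of 3.45 points over the 257 candidates. Their median percentiles lay between 28.6 and 87.8 in atpc1-1 and between 10.8 and 63.7 in WT. In 26 of the 40 the median was over 50 in atpc1-1 and under 50 in WT, against 42 of the 257 candidates. At the limit of the choice, LrgB was the last gene inside with a rise of 16.43 points and AT3G56810 the next outside with 16.40, followed by AT1G15140 with 16.34. The reference table names 3 of the 40 genes beyond their locus code: TPP2, AT2G23070 and LrgB. The other 37 are given by locus, without a role.

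**Figure D1:**
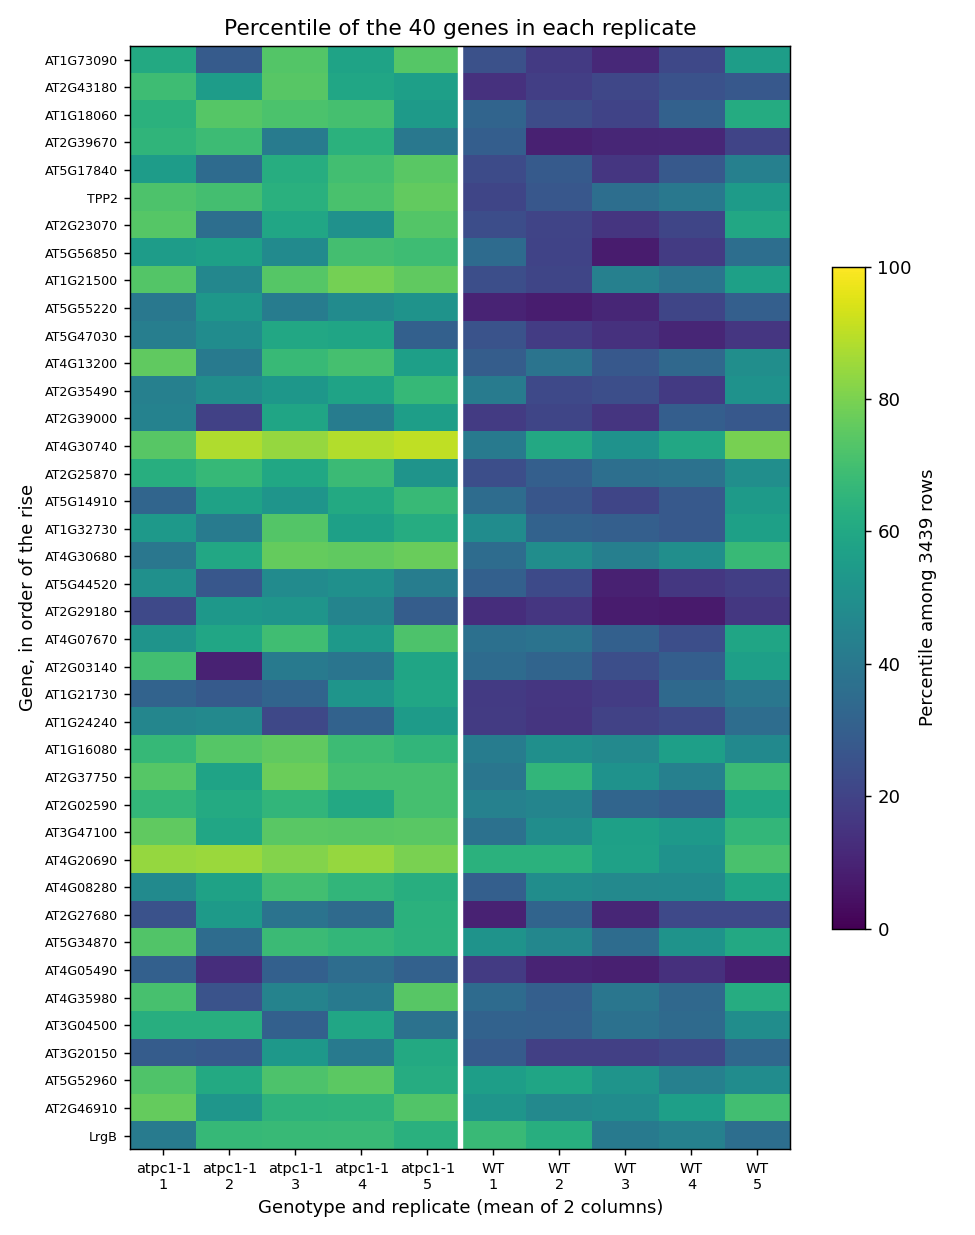
Percentile of each of the 40 genes (rows, from the largest rise at the top) in the 5 atpc1-1 and 5 WT replicates (columns, each the mean of 2 array columns). The colour runs from percentile 0 (dark) to 100 (yellow). Most genes are darker in WT replicates 1 to 4 than in atpc1-1, and WT replicate 5 is the brightest WT replicate in 31 of the 40.

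TPP2 (AT4G20850), tripeptidyl peptidase II, a serine peptidase that cuts tripeptides from the ends of longer peptides, was the only one of the 3 named genes whose replicates did not overlap. It stood at percentiles 72.2, 70.2, 63.4, 71.2 and 76.1 in atpc1-1 replicates 1 to 5, against 20.9, 27.0, 36.0, 40.1 and 55.0 in WT replicates. The lowest atpc1-1 replicate lay above the highest WT replicate. Single columns did overlap, with the lowest atpc1-1 column at 54.9 and the highest WT column at 56.5. The rise of the median was 40.9 points, and the SD between replicates was 4.63 points in atpc1-1 and 13.1 in WT (n = 5 each). The median deposited intensity was also higher, at 0.368 in atpc1-1 and 0.306 in WT. Its columns overlapped, at 0.191 to 0.486 in atpc1-1 and 0.131 to 0.52 in WT. On the quantile normalised log2 scale, which gives all columns about the same distribution, the difference was 1.40 (SE 0.32).

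AT2G23070, listed as CKA4 or CK2 alpha cp, a catalytic α subunit of the protein kinase CK2 found in chloroplasts, rose by 40.5 points with more scatter. Its percentiles were 73.6, 36.0, 59.3, 50.6 and 73.4 in atpc1-1 replicates, against 23.8, 20.6, 15.5, 20.8 and 59.9 in WT replicates. WT replicate 5 lay above 3 of the 5 atpc1-1 replicates, so the groups overlapped. Without that WT replicate the rise was 42.6 points. Median deposited intensities were 0.266 in atpc1-1 and 0.229 in WT.

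LrgB (AT1G32080), which encodes a chloroplast envelope protein that transports glycolate and glycerate in photorespiration, had the smallest rise of the 40. Its percentiles were 41.6, 66.8, 67.2, 67.7 and 63.3 in atpc1-1 replicates, against 67.9, 62.5, 41.0, 43.8 and 36.0 in WT replicates. The highest WT replicate lay above all atpc1-1 replicates, and the log2 difference of 0.26 was smaller than its SE of 0.38. Here WT replicate 5 was the lowest of WT, the opposite of most of the 40 genes. The median deposited intensity was 0.246 in atpc1-1 and 0.426 in WT.

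Among the genes given by locus, AT1G73090 had the largest rise, 48.1 points. It stood at percentiles 60.8, 28.9, 73.1, 58.0 and 73.8 in atpc1-1 replicates, against 24.8, 17.0, 11.5, 21.5 and 55.6 in WT. WT replicates 1 to 4 lay below every atpc1-1 replicate, and WT replicate 5 lay above atpc1-1 replicate 2. Its median intensity was 0.305 in atpc1-1 and 0.186 in WT, a ratio of 1.64.

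AT2G43180 rose by 45.9 points, with no overlap of columns. It stood at 68.8, 55.4, 74.1, 59.3 and 56.4 in atpc1-1 replicates, against 14.3, 18.5, 21.3, 25.2 and 27.5 in WT replicates. The lowest of its 10 atpc1-1 columns, at 47.9, was above the highest WT column, at 40.5. Its log2 difference was 1.90 (SE 0.26), and median intensities were 0.257 in atpc1-1 and 0.174 in WT.

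AT2G39670, with a rise of 44.1 points, also had columns that did not overlap. Its percentiles were 65.4, 68.5, 41.5, 64.0 and 40.1 in atpc1-1 replicates, against 29.7, 9.29, 10.6, 11.0 and 20.5 in WT replicates. With quantile normalisation its log2 difference was 2.07 (SE 0.45), the largest of the 40 genes on that scale; with median centring it was 1.80, against 1.84 for AT4G30740. Its median intensities were 0.192 in atpc1-1 and 0.128 in WT.

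AT1G18060 and AT5G17840 stood above their WT median in all 10 atpc1-1 columns but overlapped with WT replicate 5. AT1G18060 stood at 63.8, 73.5, 71.6, 70.5 and 54.4 in atpc1-1 replicates, against 32.1, 23.2, 20.1, 31.2 and 61.7 in WT replicates. AT5G17840 stood at 55.1, 34.9, 62.4, 69.9 and 74.4 in atpc1-1 replicates, against 23.0, 28.5, 15.9, 28.0 and 43.5 in WT replicates. Their rises were 44.2 and 43.7 points, and without WT replicate 5 they were 45.8 and 44.7.

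AT5G56850 and AT1G21500 rose by 39.7 and 38.2 points. AT5G56850 stood at 55.2, 56.7, 47.9, 70.2 and 69.1 in atpc1-1 replicates, against 35.1, 20.1, 7.71, 17.3 and 36.3 in WT replicates, with no overlap of replicates. AT1G21500 stood at 73.2, 46.3, 73.6, 79.2 and 75.4 in atpc1-1 replicates, against 24.1, 20.9, 43.7, 38.6 and 56.7 in WT replicates. In AT1G21500 only atpc1-1 replicate 2 reached down into the WT range.

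The next 3 genes, AT5G55220, AT5G47030 and AT4G13200, rose by 37.0, 34.3 and 33.0 points. AT5G55220 stood at 39.9, 52.9, 42.0, 48.4 and 51.5 in atpc1-1 replicates, against 9.93, 8.04, 10.8, 20.9 and 30.2 in WT replicates. AT5G47030 stood at 42.7, 48.7, 59.9, 58.9 and 30.5 in atpc1-1 replicates, against 25.7, 17.6, 14.4, 10.9 and 15.7 in WT replicates. Both had replicates that did not overlap, although their 2 columns of a replicate differed by a median of 7.44 and 20.7 points in atpc1-1. AT4G13200 stood at 75.5, 41.3, 67.2, 70.5 and 56.5 in atpc1-1 replicates, against 29.3, 38.4, 27.5, 33.9 and 49.4 in WT replicates, where atpc1-1 replicate 2 fell below WT replicate 5.

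**Figure D2:**
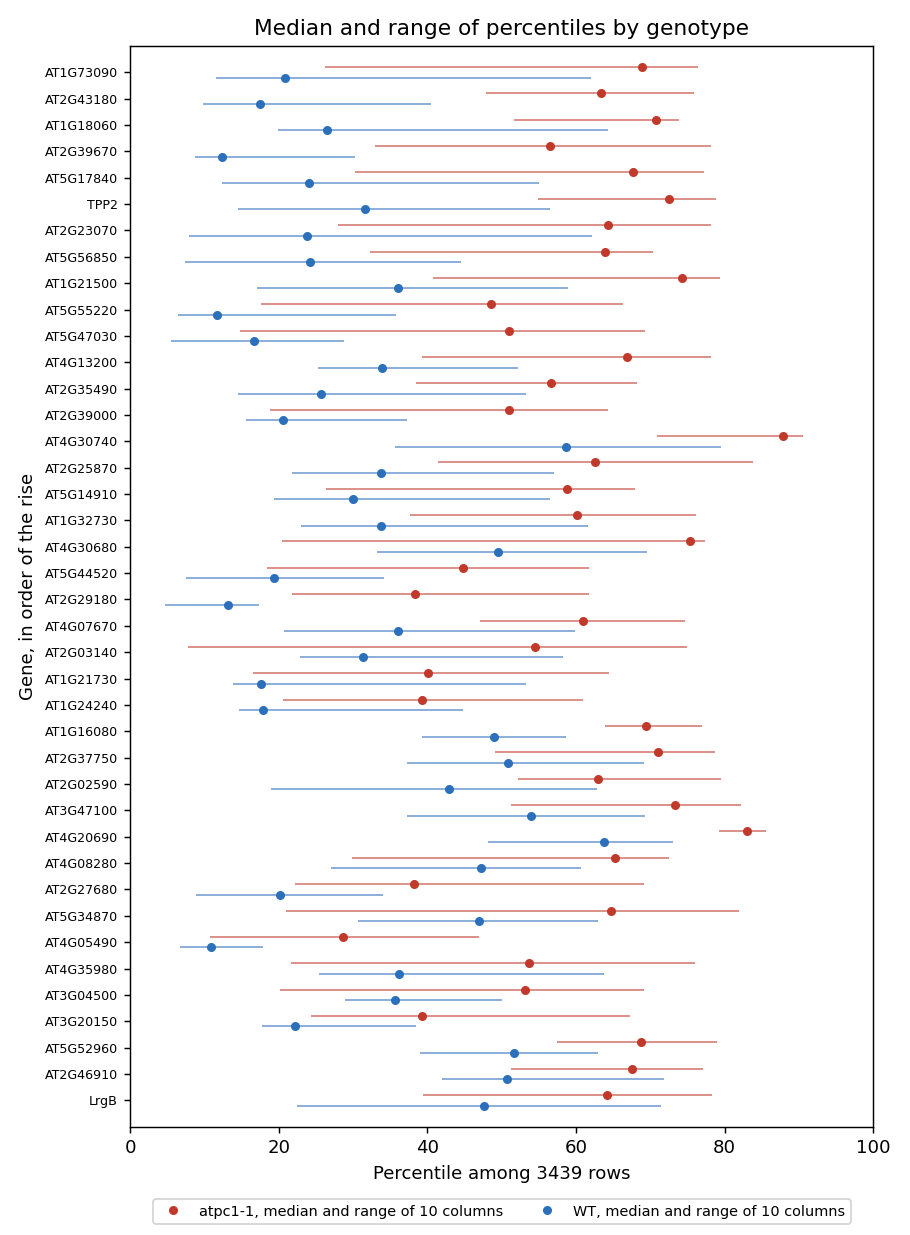
Median (point) and range (line) of the percentile over the 10 columns of each genotype for the 40 genes, atpc1-1 in red above WT in blue. The ranges of 5 genes do not meet: AT2G43180, AT2G39670, AT2G29180, AT1G16080 and AT4G20690.

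The ranges of the 10 columns of each genotype did not overlap in 5 of the 40 genes, beside 3.5% of the candidates (9 of 257) and 4.89% of all rows, shares from which nothing is read because the choice used this contrast. Besides AT2G43180 and AT2G39670 these were AT2G29180, AT1G16080 and AT4G20690. AT4G20690 was the steadiest of the 40 in atpc1-1, with 84.1, 85.1, 81.3, 84.3 and 79.8 in atpc1-1 replicates, against 63.8, 63.9, 57.2, 50.8 and 71.2 in WT replicates. AT1G16080 stood at 66.9, 73.8, 75.6, 68.7 and 65.8 in atpc1-1 replicates, against 42.0, 49.9, 47.2, 56.3 and 47.5 in WT replicates. The rises of AT4G20690 and AT1G16080 were 19.3 and 20.5 points, with an SD between atpc1-1 replicates of 2.26 and 4.33 points (n = 5). AT2G29180 lay lower than AT4G20690 and AT1G16080 in each genotype. It stood at 22.2, 53.4, 52.0, 45.1 and 29.3 in atpc1-1, against 13.1, 15.8, 7.55, 7.23 and 16.1 in WT. Over replicates in place of columns 12 of the 40 genes did not overlap, beside 8.17% of the candidates. Without WT replicate 5 the columns of 10 of the 40 genes and 19 of the 257 candidates did not overlap, and without atpc1-1 replicate 3 those of 8 and 13. With percentiles taken only among rows above 0 in all columns, the columns of 1 of the 40 genes and 4 of the candidates did not overlap.

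WT replicate 5 stood apart from the other WT replicates in these genes. It was the highest WT replicate in 31 of the 40, against 96 of the 257 candidates. The median percentile of the 40 genes was 50.2 in WT replicate 5 and between 25.9 and 31.1 in WT replicates 1 to 4. In the atpc1-1 replicates it was 53.9 in replicate 2 and between 60.6 and 63.7 in the others. All of WT replicates 1 to 4 lay under all atpc1-1 replicates in 22 of the 40 genes, against 42 of the 257 candidates. Nothing is read from these counts, because the choice used this contrast. The median rise of the 40 was 27.0 points without WT replicate 5. What sets WT replicate 5 apart was not tested.

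In atpc1-1, replicate 2 was the lowest of the 5 in 19 of the 40 genes, against 71 of the 257 candidates. AT2G03140 stood at 9.61 in replicate 2 and between 38.9 and 69.6 in the other atpc1-1 replicates, against 24.2 to 56.3 in WT replicates. AT4G35980 likewise stood at 25.6 in replicate 2 and between 41.1 and 74.1 in the others, against 34.9, 30.3, 39.3, 33.9 and 62.1 in WT replicates. Other genes of the 40 went the opposite way: AT2G29180 had its highest atpc1-1 percentile, 53.4, in replicate 2. The lowest atpc1-1 replicate was replicate 1 in 10 of the 40 and replicate 5 in 6.

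The scatter within pairs of columns was larger in atpc1-1 than in WT and larger in the 40 genes than in the candidates. The 2 columns of a replicate differed by a median of 8.17 points in atpc1-1 and 5.03 in WT over the 40 genes, and by 6.54 and 3.49 over the candidates. The SD between replicates had a median of 11.4 points in atpc1-1 and 10.2 in WT over the 40 genes, and of 8.53 and 8.11 over the candidates. Over the 217 other candidates it was 7.79 in atpc1-1 and 7.89 in WT, so there atpc1-1 was not the larger. AT2G03140 had a rise of 23.2 points and an SD of 22.9 in atpc1-1, and AT4G35980 a rise of 17.7 points and an SD of 20.7 (n = 5 each).

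**Figure D3:**
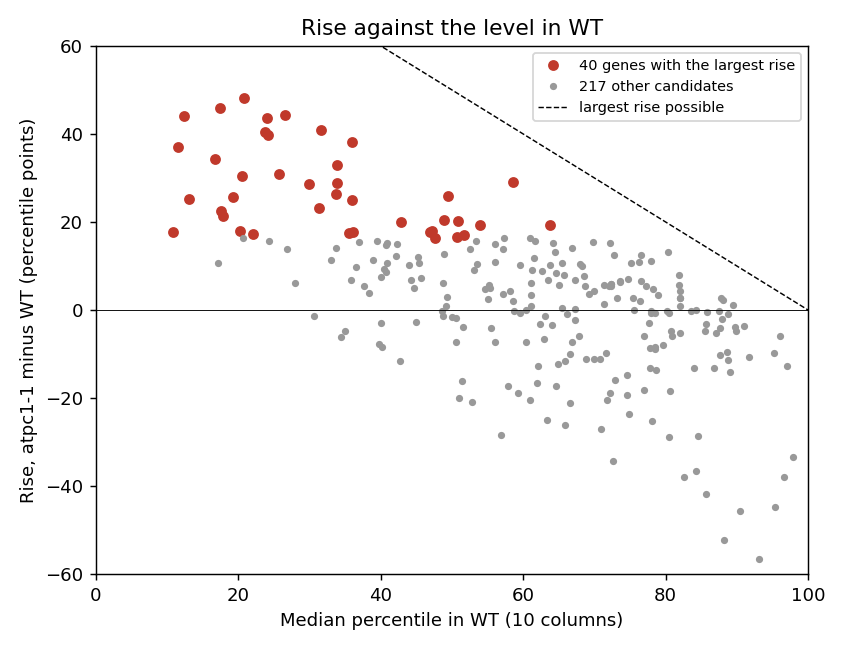
Rise in percentile points (vertical) against the median percentile in WT (horizontal) for the 257 candidates, with the 40 genes in red and the 217 others in grey. The dashed line marks the largest rise that the scale allows. The 40 genes lie mostly at low WT percentiles, 34 of them under 50, which the choice partly set because it subtracted the WT median.

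The 40 genes started low. Their median percentile in WT was 31.5, against 63.5 over the candidates, and 34 of 40 started under 50, against 76 of 257 candidates. Of the 10 candidates that started under percentile 20 in WT, 9 were among the 40, and of the 23 that started under 30, 18 were. Of the 181 candidates that started at 50 or above, 6 were: AT4G20690, AT4G30740, AT3G47100, AT5G52960, AT2G37750 and AT2G46910. The choice subtracted this same WT median, so a low start is partly set by the choice and nothing is read from these counts. The room to rise is also larger for a row that starts low, and a candidate had to be above 0 in every atpc1-1 column. The part of each in this pattern was not tested. In atpc1-1 the 40 genes had a median percentile of 63.2 and the candidates 63.4.

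AT4G30740 was the brightest of the 40 in atpc1-1. It stood at 74.2, 88.1, 84.2, 88.5 and 90.3 in atpc1-1 replicates, against 40.9, 60.4, 50.9, 60.1 and 79.3 in WT replicates, a rise of 29.2 points. Its median intensity was 1.05 in atpc1-1 and 0.584 in WT, a ratio of 1.81 that was the largest of the 40. The replicates overlapped through WT replicate 5, which lay above atpc1-1 replicate 1. At the other end AT4G05490 was the dimmest of the 40, at 30.6, 13.0, 30.6, 35.9 and 30.9 in atpc1-1 replicates, against 17.4, 10.1, 8.78, 13.9 and 8.33 in WT replicates.

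Candidates are above 0 in every column by the rule, while more of the other rows stood at 0 in atpc1-1 than in WT, and a row at 0 takes a place below every candidate. When percentiles were taken only among the 1761 rows above 0 in all 20 columns, the median rise of the 40 genes was 17.0 points, with a range of 3.18 to 40.7, and the median of the candidates was -0.284. All 40 still rose, and 32 of them by 10 points or more. AT4G30740 rose by 40.7 points on this count, more than the 29.2 among all rows, AT1G73090 by 38.0, AT1G18060 by 37.5 and TPP2 by 36.6. AT4G05490 rose by 3.18 points, AT1G24240 by 6.30 and AT3G20150 by 7.01. Of the 40 genes that a choice on these percentiles would take, 25 were the same.

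**Figure D4:**
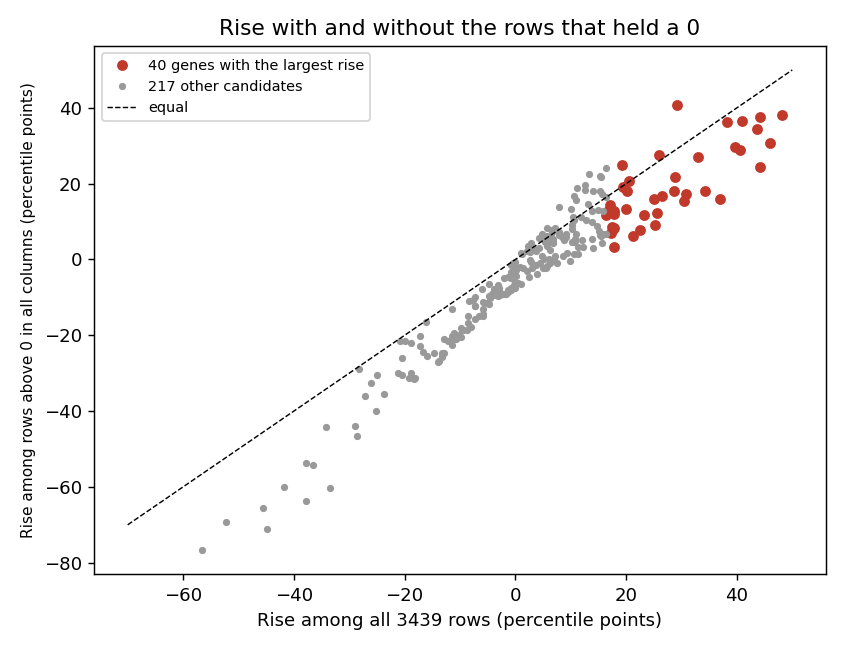
Rise among the rows above 0 in all 20 columns (vertical) against the rise among all rows of the array (horizontal), both in percentile points, for the 40 genes in red and the 217 other candidates in grey. The dashed line marks equal values. The 40 genes all lie above 0 on both axes, and most lie below the dashed line.

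The median deposited intensity was higher in atpc1-1 than in WT in 12 of the 40, beside 8.17% of the candidates (21 of 257) and 12.8% of all rows. These were AT1G73090, AT2G43180, AT1G18060, AT2G39670, AT5G17840, TPP2, AT2G23070, AT5G56850, AT1G21500, AT5G47030, AT4G30740 and AT4G20690, with ratios of atpc1-1 to WT between 1.13 (AT4G20690) and 1.81 (AT4G30740). The other 28 were dimmer, with ratios between 0.519 (AT4G35980) and 0.975 (AT5G55220). Among the first 11 genes by rise only AT5G55220 was dimmer, at 0.132 in atpc1-1 and 0.135 in WT. The direction of the others depends on the scale. With mean scaling 15 of the 40 and 25 of the 257 candidates had a higher median in atpc1-1. With median centring the counts were 40 of the 40 and 152 of the candidates, with quantile normalisation 40 and 129, and with cyclic loess 39 and 144. Quantile normalisation keeps the order of rows within a column, so its count of the 40 was largely set by the choice on percentiles. Nothing is read from the counts of the 40 beside those of the candidates.

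As a share of the summed intensity of a column, the 40 genes held ranges that overlapped between genotypes. They held 0.322% to 0.371% of the summed intensity in atpc1-1 columns and 0.327% to 0.405% in WT columns. The candidates as a whole held 2.81% to 3.41% in atpc1-1 and 4.91% to 6.34% in WT, and those ranges did not overlap. The 40 were chosen from the candidates for a rise in these same columns, so nothing is read from this contrast.

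**Figure D5:**
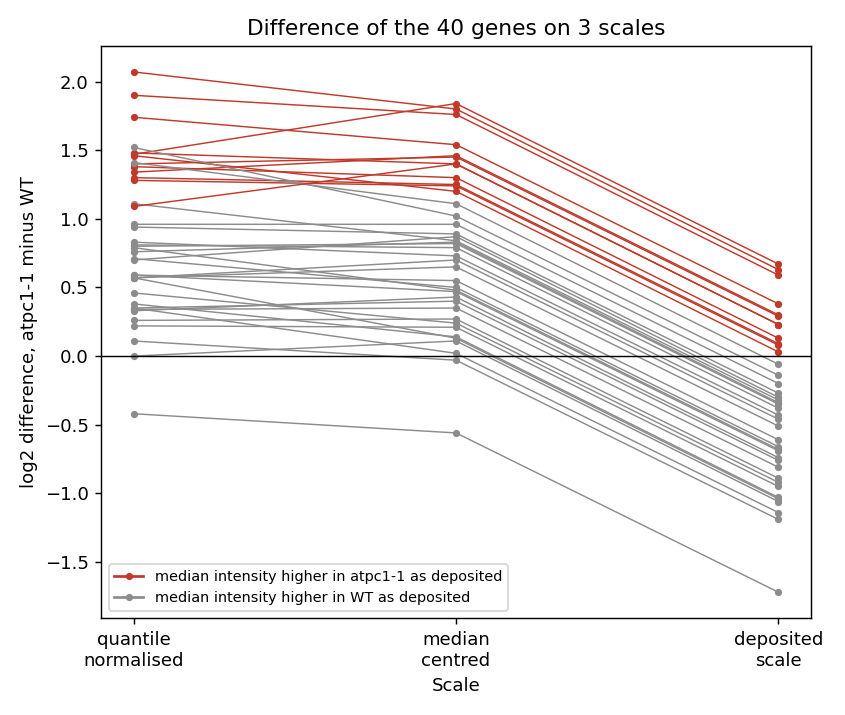
Log2 difference, atpc1-1 minus WT (vertical), of each of the 40 genes with quantile normalisation, with median centring and on the deposited scale (horizontal), 1 line a gene. Red lines are the 12 genes whose median deposited intensity was higher in atpc1-1, and grey lines the other 28, which lie above 0 on the left in most cases and below 0 on the right.

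On the quantile normalised scale the log2 difference had a median of 0.795 over the 40 genes, against -0.0944 over the candidates, and it was positive in 38. The 2 others were AT4G30680 with -0.00 (SE 0.82) and AT2G03140 with -0.42 (SE 0.69). In AT4G30680 the medians differed by 25.9 points, at 75.4 in atpc1-1 and 49.5 in WT, but atpc1-1 replicate 1 stood at 39.6 and its lowest column at 20.4. A limma fit covered all 3298 rows that could be tested. At an adjusted p under 0.05 it called 15 of the 40 genes higher and 0 lower. At that threshold 10.2% of all tested rows and 7.39% of the candidates were called higher. At an unadjusted p under 0.05 the counts in the 40 were 21 and 0. Shares of all rows at an unadjusted p are not given on any scale, so nothing is read from unadjusted counts. This fit used the contrast on which the genes were chosen, so the count of calls says nothing further about them. The count rests on the scale: on the deposited intensities limma called 0 of the 40 higher and 6 lower (0 and 9 at an unadjusted p under 0.05), where 3.82% of all tested rows were called higher and 57.5% lower. With 1 replicate left out on the quantile normalised scale it was 5 without atpc1-1 replicate 4 and 9 without atpc1-1 replicate 5, where 239 and 261 of all rows were called higher, against 337 with all replicates. Without WT replicate 1, 2, 3 or 4 it was 7, 4, 6 and 6, where 214, 194, 203 and 215 of all rows were called higher, so calls were fewer over the whole array too.

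Some of the 40 genes were listed on a second row, which the rule did not use. AT2G25870 had another row with no further gene, and the 2 rows disagreed. The chosen row rose by 28.9 points, with 62.6, 66.8, 59.6, 68.1 and 51.8 in atpc1-1 replicates, against 24.1, 30.1, 36.4, 37.7 and 49.3 in WT replicates. The other row stood at 21.2, 67.5, 49.7, 56.5 and 49.4 in atpc1-1 replicates, against 72.9, 69.7, 70.3, 76.7 and 46.9 in WT replicates, a change of -16.6 points with a log2 difference of -1.07 (SE 0.42). It was above 0 in 9 of 10 atpc1-1 columns, so it was no candidate. The reference table lists the older locus AT2G25860 as a synonym of AT2G25870; which part of the gene each row reports is unknown here.

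A further 5 genes shared a second row with other genes. Each of these shared rows had a higher median percentile in atpc1-1 and was dimmer there on the deposited scale. The share of all rows with several genes that rose is not given, so nothing is read from this count. Over the 1761 rows above 0 in all columns the median rise was 1.85 points. The shared row of AT2G43180 stood at 0.381 in atpc1-1 and 0.569 in WT, while its own row was brighter in atpc1-1. The row that lists AT2G43180 with 3 further genes stood higher by 14.2 points (log2 difference 0.51, SE 0.31), against 45.9 on its own row. The row of AT1G21730 with 2 further genes stood higher by 13.1 points (log2 difference 0.57, SE 0.27). That of AT2G35490 with 3 further genes stood higher by 8.65 points (0.19, SE 0.26). That of AT1G24240 with 2 further genes stood higher by 8.45 points (0.46, SE 0.40). The row of AT2G46910 with 2 further genes stood higher by 27.0 points (0.59, SE 0.47), more than the 16.7 on its own row. Only this last row exceeded its single-gene row, and rows with several genes cannot show which of them gave the signal.

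The other genes of the 40, not yet given by replicate, rose by 16.7 to 30.9 points. AT2G35490, AT2G39000, AT5G14910 and AT1G32730 had median percentiles between 51.0 and 60.1 in atpc1-1 and between 20.5 and 33.7 in WT, and all were dimmer on the deposited scale. AT5G44520, AT4G07670, AT1G21730, AT1G24240, AT2G27680, AT3G04500 and AT3G20150 rose by 17.2 (AT3G20150) to 25.6 points (AT5G44520). AT2G37750, AT2G02590, AT3G47100, AT4G08280, AT5G34870, AT5G52960 and AT2G46910 reached medians between 62.9 and 73.3 in atpc1-1, against 42.9 to 54.0 in WT, and rose by 16.7 to 20.2 points. Replicates did not overlap in AT2G02590 and AT5G52960 of these, and AT5G52960 stood at 72.4, 60.6, 71.9, 74.8 and 62.0 in atpc1-1 replicates, against 56.0, 58.9, 51.6, 43.6 and 48.5 in WT replicates.

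The 40 genes lay on all 5 nuclear chromosomes. Chromosome 1 held 8, chromosome 2 held 12, chromosome 3 held 3, chromosome 4 held 9 and chromosome 5 held 8, while the 257 candidates were split 55, 51, 43, 60 and 48. In the gene order of the reference table, 3 pairs lay within 30 protein-coding genes of each other. AT4G30680 and AT4G30740 had 5 genes between them, AT4G20690 and TPP2 had 16, and AT1G21500 and AT1G21730 had 25. The median gene length was 2002 bases over the 40 genes and 2100 over the candidates.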

How the data were processed

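The deposited table holds array intensities on a linear scale, 1 column per sample; how the authors made, scaled or filtered them is not stated per the labels' protocols. An intensity carries no depth, and how many of the arrays are independent samples is not known. Genes came from the platform's annotation, updated through RefSeq's table of assembly TAIR10.1 (690 of 692 rows with 1 gene matched), used for names, gene order and length only. Percentiles were computed in each column with ties averaged (pandas 2.3.3). RPL5, RPL17 and RPS10 were left out by locus, since the tables give no symbol for them. All tested rows were fitted with limma 3.58.1 in R 4.3.3 on log2 intensity, 0 as missing, quantile normalised, pairs of columns averaged, at least 3 of 5 replicates with a value, Benjamini-Hochberg adjusted. The fit was also run on simulated data with independent noise in each replicate and no array-wide difference between genotypes. Its outcome is not given here, and such data cannot show how the fit handles the array-wide difference seen here. The 40 genes and the lists were chosen with earlier results of these data known. Full values are given for the 12 genes with the largest rise and those with a known role; the other genes given by replicate were chosen after their values were seen. Keyword classes of function were not used, because only 99 of 692 rows with 1 gene have a name beyond the locus. Protein and promoter features were not analysed here.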

Additional observations from a re-analysis of the deposited data

Results flagged for a closer look

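Each of the 40 genes was checked for a replicate far from the other 4 of its genotype, by the gap to the nearest replicate as a share of the range. Of 80 groups 8 held one, where chance gives about 4 in independent groups, and these share their replicates. In 4 of the 8 it was atpc1-1 replicate 2 and in 3 it was WT replicate 5. AT1G21500 stood at 46.3 in atpc1-1 replicate 2 and at 73.2 to 79.2 in the others (gap 0.819 of the range). AT3G47100 stood at 59.2 there and at 74.1 to 75.4 in the others (0.922), AT5G34870 at 35.2 and 64.4 to 72.8 (0.776), and AT4G05490 at 13.0 and 30.6 to 35.9 (0.766). LrgB stood at 41.6 in atpc1-1 replicate 1 and at 63.3 to 67.7 in the others (0.832). In WT replicate 5, AT1G18060 stood at 61.7 against 20.1 to 32.1 in the other WT replicates (0.712), AT2G23070 at 59.9 against 15.5 to 23.8 (0.811) and AT4G35980 at 62.1 against 30.3 to 39.3 (0.716).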

How the results depend on the processing

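All 560 recomputed rises of single genes stayed positive, and 16 moved by more than the SD between replicates. The genes were chosen for a large rise in these same columns, so positive values were largely set by the choice. Taking ties at their lowest rank changed none of the rises. The median rise was 17.0 among rows above 0 in all columns, and 22.4 to 27.4 with 1 replicate left out. Genes whose columns did not overlap numbered 1 (4 candidates) among rows above 0 in all columns. Over 5 replicates they numbered 12 (21 candidates), and with 1 replicate left out 5 to 10 (9 to 19 candidates). Of the 40 genes, 25 were chosen again among rows above 0 in all columns, and 34 to 37 with 1 replicate left out. The count brighter in atpc1-1 was 15 with mean scaling, 40 with median centring, 39 with cyclic loess and 40 with quantile normalisation (25, 152, 144 and 129 of the 257 candidates), and 11 to 13 with 1 replicate left out. The count with quantile normalisation was largely set by the choice on percentiles. Genes called higher by limma numbered 0 on the deposited scale (6 lower) and 0 with mean scaling. With mean scaling 2 were higher and 4 lower at an unadjusted p under 0.05, for which no share of all rows is given. The count called higher was 29 with a pseudocount, 23 with 10 columns as replicates and 4 to 19 with 1 replicate left out. Over all rows 808 were called, 2022 on the deposited scale (126 higher), 1816 with mean scaling (150 higher), 1343 with 10 columns, and 453 to 957 with 1 replicate left out. Higher and lower calls were 337 and 471, 497 and 403 with median centring, 408 and 243 with zeros at the lowest positive value, and 631 and 522 with a pseudocount. The causes were not tested. Rows that stood at 0 more often in atpc1-1 limit what percentiles of dim rows show. Same-numbered replicates of the genotypes correlated at 0.0326 to 0.306. For atpc1-1 replicates 1 and 5 the same-numbered WT replicate was the one that correlated best. Whether same-numbered replicates share more than a number was not tested. With the replicate block 732 rows and 12 of the 40 genes were called. Choosing by symbol alone, tried after seeing the data, kept 38.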
